A study of Fukomys damarensis and Heterocephalus glaber and Cavia porcellus with 28 samples.

Results

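The 8 genes described here encode proteins through which the autonomic nervous system and adenosine act on heart and liver cells. They are the adrenergic receptor genes Adrb1, Adra1a and Adra1b, the muscarinic receptor gene Chrm2, the adenosine receptor gene Adora1, the adenylyl cyclase genes Adcy5 and Adcy6, and the phosphodiesterase gene Pde4d. They were chosen by symbol from the 13928 rows of the heart and liver expression tables, whose rows are mouse gene identifiers, and all 8 were present in both tables. RNA was sequenced after removal of ribosomal RNA from 2 mole-rat species, the naked and the Damaraland mole-rat, and from guinea pig and mouse, which stand as outgroups to the mole-rats. The naked mole-rats were 13 to 17 months old and gave 3 hearts and 4 livers. The Damaraland mole-rats were 36 to 48 months old, with 5 hearts and 5 livers. The guinea pigs were 2.3 months old (3 hearts, 3 livers), and the mice 2 months old (3 hearts, 2 livers). The 28 libraries came from 18 animals, of which 10 gave both tissues, and 1 library, Damaraland liver replicate 4, was from a female. No treatment or genotype is named in the labels, and neither the heart chamber nor the liver lobe is given. Age differed between the species, so species and age cannot be told apart.

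Noradrenaline and adrenaline act on beta-1 receptors (Adrb1), which couple through the stimulatory G protein to adenylyl cyclases and raise cyclic AMP, the signal for a faster and stronger heartbeat. Acetylcholine acts on M2 muscarinic receptors (Chrm2) and adenosine on A1 receptors (Adora1), both of which couple to inhibitory G proteins and lower cyclic AMP. Alpha-1 receptors (Adra1a, Adra1b) couple instead to Gq and phospholipase C, and in liver they are known for driving glycogen breakdown through calcium. Adcy5 and Adcy6 are the related cyclases typical of heart muscle, and Pde4d is an enzyme that breaks cyclic AMP down again.

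Values are the deposited log2-like values unless reads are stated. On this scale 0 reads correspond to 5.36 in the heart table and 4.29 in the liver table, and near that floor differences are compressed. Scaled reads are reads recovered from the tables and divided by the size factor of the library. No value is corrected for gene length, so levels were compared between species for 1 gene and not between genes, and differences in the annotation or length of a gene between species cannot be told apart from differences in expression. Depth ran from 4089633 to 26985779 recovered reads per library in heart and from 11220505 to 21467939 in liver. The shallowest library was replicate 3 of the naked mole-rat hearts, and a call that it decides is given with and without it. RPM below are recovered reads scaled to a library total of 1000000. The heart libraries held 48700 to 147000 RPM from 7 cardiomyocyte markers against 43.2 to 276 in liver, and the liver libraries held 77100 to 179000 RPM from 6 hepatocyte markers against 18.6 to 2060 in heart. The hepatocyte sum in heart was highest in the naked mole-rat, at 816 to 2060. In bulk tissue, fewer cells of a type and less RNA per cell cannot be told apart.

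A difference between species was called at an adjusted p under 0.05 (limma, Benjamini-Hochberg over all 10667 genes tested in heart or 10887 in liver) with an absolute difference of at least 1. In heart, the mole-rats were set against the outgroups in an average contrast, which called 1 of the 8 genes, Adra1b, lower in the mole-rats. Over all genes 23.4% were called, 10.8% higher and 12.6% lower. Here and in liver, the p-values of the average contrast rest on the spread of libraries within species and not on the spread between species. The median difference of the 8 genes was -0.14, against -0.01 over all genes tested. By limma, no member was called the same way in heart in all 4 pairings of 1 mole-rat and 1 outgroup, where 4.68% of all genes were. That count was also 0 at an unadjusted p under 0.05 and with voom on the recovered reads. Over the 6 pairs of species in heart, 24 of 48 member-by-contrast tests were called, where 29.4% to 38.2% of all genes were called per pair.

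By pair, the naked and Damaraland mole-rats differed in 4 of the 8 genes in heart (29.4% of all genes), and the naked mole-rat and guinea pig in 5 (33%). Naked mole-rat and mouse differed in 3 (38.2%), Damaraland mole-rat and guinea pig in 2 (29.7%), Damaraland mole-rat and mouse in 5 (34.9%), and guinea pig and mouse in 5 (32.1%). The genes that differed were receptors, both cyclases and Pde4d. Contrasts within a tissue share libraries and are not independent of each other.

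Adrb1 (ENSMUSG00000035283), the main beta receptor of heart muscle, was lowest in the Damaraland heart. Its values were 9.71, 9.71 and 8.21 in the naked mole-rat, 7.46, 8.14, 8.03, 7.90 and 8.41 in the Damaraland mole-rat, 8.77, 8.71 and 9.42 in the guinea pig, and 9.50, 8.99 and 9.29 in the mouse. Every guinea pig and mouse heart lay above every Damaraland heart, while naked mole-rat replicate 3 lay inside the Damaraland range. Mean scaled reads were 184 in the Damaraland mole-rat, 435 in the guinea pig, 540 in the mouse and 579 in the naked mole-rat, in ascending order. The Damaraland mole-rat was lower than the mouse by limma (difference -1.27, SE 0.30, adjusted p = 0.00142). The naked mole-rat also exceeded the Damaraland mole-rat (difference 1.22, SE 0.30, adjusted p = 0.00222), but this difference was 0.97, short of the size threshold, without naked mole-rat replicate 1 or without replicate 2. The difference of the Damaraland mole-rat from the guinea pig, -0.98 (SE 0.30, adjusted p = 0.0101), fell just short of that threshold. It was past it without Damaraland replicate 2 or 5 or guinea pig replicate 1 or 2 (-1.11 to -1.02) and with voom on the recovered reads (-1.29, adjusted p = 0.00373). The upper 3 species were not separated from each other (adjusted p from 0.472 to 0.904). Damaraland hearts also had the highest cardiomyocyte marker sum, 113000 to 147000 RPM, and the highest neuron and glia sum, 102 to 224 RPM against 12.6 to 59.9 in the other species, and the part of either in the Adrb1 difference was not tested.

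Adra1a (ENSMUSG00000045875), the alpha-1A receptor gene, was high in naked mole-rat and mouse hearts and low in guinea pig hearts. Values were 9.97, 9.86 and 9.23 in the naked mole-rat, 9.29, 9.51 and 9.75 in the mouse, 8.98, 7.69, 8.81, 7.63 and 6.95 in the Damaraland mole-rat, and 7.72, 7.19 and 7.07 in the guinea pig. No Damaraland or guinea pig heart reached the lowest naked mole-rat or mouse heart, and the Damaraland animals varied most (SD 0.86, n = 5). Scaled reads averaged 766, 659, 221 and 92.3 in that order. The naked mole-rat was higher than the guinea pig (difference 2.36, SE 0.40, adjusted p = 8.67e-05, limma) and than the Damaraland mole-rat (1.68, SE 0.36, adjusted p = 6.96e-04). The mouse was also higher than both, and the Damaraland mole-rat minus mouse difference was -1.51 (SE 0.36, adjusted p = 0.00148). Naked mole-rat and mouse differed by 0.17 (SE 0.40, adjusted p = 0.721), and Damaraland mole-rat and guinea pig by 0.68 (SE 0.36, adjusted p = 0.11), so neither pair of neighbours was separated in this fit. With a replicate block in limma, Damaraland mole-rat minus guinea pig was called (1.16, adjusted p = 0.00528).

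Adra1b (ENSMUSG00000050541), the gene of the alpha-1B receptor, was close to the floor in naked mole-rat heart and well above it in the other species. The 3 naked mole-rat hearts had values of 5.78, 5.81 and 6.22, from 4, 6 and 4 reads. Values were 8.85, 8.44, 8.95, 8.32 and 8.44 in Damaraland hearts, 7.86, 7.57 and 8.42 in guinea pig hearts, and 10.13, 9.81 and 9.79 in mouse hearts. The naked mole-rat libraries lay below every other heart and the mouse libraries above every other heart. Pooled over the naked mole-rat hearts, 14 of 45713133 reads gave 0.306 RPM, with an exact 95% Poisson interval of 0.167 to 0.514 that covers counting error only. Mean scaled reads were 7.36 in the naked mole-rat, 180 in the guinea pig, 316 in the Damaraland mole-rat and 889 in the mouse, which is 24.4, 42.9 and 121 times the naked mole-rat level. Without naked mole-rat replicate 3, whose 4 reads came from the shallowest library, the naked mole-rat mean was 3.63 and these ratios were 49.5, 87.0 and 244.

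By limma, Adra1b in the naked mole-rat was lower than in the mouse (difference -3.98, SE 0.23, adjusted p = 2.28e-10), the Damaraland mole-rat (-2.67, SE 0.20, adjusted p = 9.2e-09) and the guinea pig (-2.02, SE 0.23, adjusted p = 1.01e-06). Adra1b was thus lower in the naked mole-rat alone, as were 4.14% of all genes in heart, and higher in the mouse alone, as were 6.6%. The average contrast of -1.67 (SE 0.15, adjusted p = 6.16e-08) rested on the naked mole-rat. The Damaraland mean was below the mouse (-1.31, SE 0.20, adjusted p = 2.53e-05), while the difference of the Damaraland mole-rat from the guinea pig was 0.65 (SE 0.20, adjusted p = 0.0106) in the other direction. On the recovered reads, where low levels are compressed less, voom gave log2 differences of the naked mole-rat of -5.79, -4.91 and -7.29 from the Damaraland mole-rat, guinea pig and mouse. The cardiomyocyte marker sum was 48700 to 70800 RPM in naked mole-rat hearts and 59700 to 63800 in mouse hearts, ranges that overlap. The smooth muscle and pericyte sum was 539 to 867 in the naked mole-rat and 768 to 1160 in the mouse.

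Chrm2 (ENSMUSG00000045613), through which the vagus nerve slows the heart, was highest in the mouse and lowest in the guinea pig, with both mole-rats between them. Its values were 11.74, 11.75 and 11.55 in the mouse, 10.78, 10.77, 10.59, 10.83 and 10.30 in the Damaraland mole-rat, 10.49, 10.40 and 10.82 in the naked mole-rat, and 9.59, 9.18 and 9.41 in the guinea pig. The mouse and guinea pig ranges were separate from all others, and the mole-rat ranges overlapped. Scaled reads averaged 3210, 1540, 1450 and 599 in that order. The guinea pig was lower than the naked mole-rat (naked mole-rat minus guinea pig 1.17, SE 0.18, adjusted p = 3.3e-05), the Damaraland mole-rat (Damaraland minus guinea pig 1.26, SE 0.16, adjusted p = 4.2e-06) and the mouse. The mouse was higher than all 3: naked mole-rat minus mouse was -1.11 (SE 0.18, adjusted p = 4.78e-05), Damaraland minus mouse -1.03 (SE 0.16, adjusted p = 3.27e-05) and guinea pig minus mouse -2.28 (SE 0.18, adjusted p = 1.82e-08). Lower in the guinea pig alone in heart were 2.62% of all genes. The Damaraland minus mouse difference fell to between -0.99 and -0.94, under the size threshold, without Damaraland replicate 5 or without mouse replicate 1 or 2, and was -0.96 with median centring. With quantile normalisation the Chrm2 differences of both mole-rats from the mouse were under it, at -0.91 for the naked and -0.89 for the Damaraland mole-rat. The mole-rats differed by -0.08 (SE 0.16, adjusted p = 0.667).

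Chrm2 is known as a receptor of atria and the conduction system, so markers of both are given beside it. The sum of 6 atrial markers was 73.4 to 227 RPM in mouse hearts, 205 to 1630 in guinea pig, 574 to 2700 in naked mole-rat and 1240 to 3040 in Damaraland hearts, the last led by Stard10. The sum of 5 conduction system markers was 36.9 to 59.0 in the mouse, where Hcn4 led, and 16.5 to 27.8, 10.0 to 20.4 and 3.71 to 12.0 in guinea pig, naked mole-rat and Damaraland hearts. Mouse hearts thus had the highest Chrm2 with the highest conduction sum and an atrial sum near the low end. The sums are not specific to these cells, since Stard10 was also 962 to 1210 RPM in mouse livers. Tbx3, which led the conduction sum in the other hearts, averaged 89.1 RPM in mouse livers. Among the atrial markers, Myl4 was 0.682 to 156 RPM in Damaraland hearts and 1.89 to 2.51 in mouse hearts, while Sln was 33.8 to 153 and 0 to 0.446. The part of these cells in the Chrm2 differences was not tested.

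Adora1 (ENSMUSG00000042429), the adenosine A1 receptor gene, gave no call in heart. Values were 9.06, 9.18 and 7.46 in the naked mole-rat, 8.04, 8.73, 8.07, 7.65 and 8.68 in the Damaraland mole-rat, 8.61, 9.19 and 9.45 in the guinea pig, and 8.59, 8.64 and 8.35 in the mouse. All 4 ranges overlapped their neighbours, and the naked mole-rat hearts spanned the widest range through replicate 3. The largest difference was Damaraland minus guinea pig, at -0.85 (SE 0.34, adjusted p = 0.0373, limma), which did not pass on size. It reached -1.09 without guinea pig replicate 1 and, as a log2 difference, -1.09 with voom on the recovered reads.

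The muscarinic genes Chrm1, Chrm4 and Chrm5 had between 0 and 9 reads in every heart library and were not tested. Among the other receptors of the pathway list, Adra1d and Adora2a passed the filter. Adra1d, the third alpha-1 subtype gene, was higher in guinea pig heart alone, at 10.44 ± 0.17 (SD, n = 3), against 7.51 ± 0.21 in the mouse (n = 3), 6.80 ± 0.72 in the naked mole-rat (n = 3) and 6.33 ± 0.19 in the Damaraland mole-rat (n = 5). Guinea pig minus mouse was 2.93 (SE 0.26, adjusted p = 8.01e-08) and naked mole-rat minus guinea pig -3.64 (SE 0.26, adjusted p = 6.13e-09). The 3 alpha-1 genes therefore had different species at their highest level in heart: Adra1b in the mouse and Adra1d in the guinea pig, with Adra1a not separated between naked mole-rat and mouse.

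**Figure D1:**
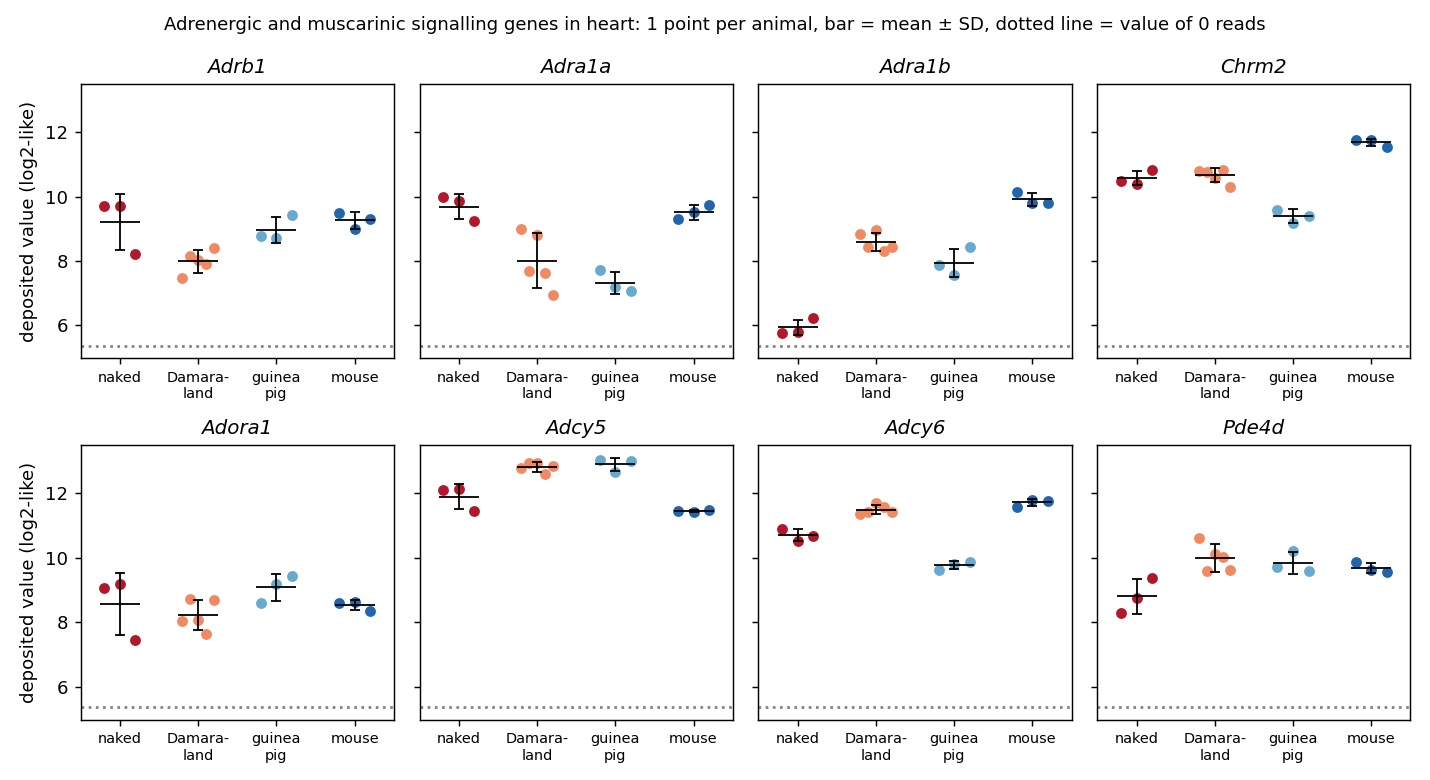
Deposited log2-like values of the 8 genes in heart (y axis), 1 point per animal, for naked mole-rat (n = 3), Damaraland mole-rat (n = 5), guinea pig (n = 3) and mouse (n = 3); bars show mean ± SD and the dotted line the value of 0 reads, 5.36. The naked mole-rat points for Adra1b, 5.78 to 6.22, sit just above that line and below every other heart.

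Adcy5 (ENSMUSG00000022840) was higher in Damaraland and guinea pig hearts than in mouse hearts. Its values were 12.80, 12.96, 12.95, 12.59 and 12.85 in the Damaraland mole-rat, 13.04, 12.68 and 13.02 in the guinea pig, 12.11, 12.14 and 11.45 in the naked mole-rat, and 11.45, 11.43 and 11.49 in the mouse. All Damaraland and guinea pig hearts lay above all naked mole-rat and mouse hearts, and the ranges overlapped within each of these pairs of species. In scaled reads the means were 7230, 7690, 3820 and 2730 in that order. Damaraland minus mouse was 1.37 (SE 0.17, adjusted p = 2.99e-06) and guinea pig minus mouse 1.46 (SE 0.19, adjusted p = 7.24e-06). Naked mole-rat minus guinea pig was -1.02 (SE 0.19, adjusted p = 2.62e-04), and this was -0.79 without naked mole-rat replicate 3, -0.95 without guinea pig replicate 1 and -0.97 without guinea pig replicate 3, as well as -0.99 with median centring and -0.82 with array weights. Naked mole-rat minus Damaraland mole-rat was -0.93 (SE 0.17, adjusted p = 2.05e-04) and passed on size without naked mole-rat replicate 1 (-1.04) or 2 (-1.05). The neighbours Damaraland mole-rat and guinea pig (-0.09, adjusted p = 0.687) and naked mole-rat and mouse (0.44, adjusted p = 0.0564) were not separated by the test.

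Adcy6 (ENSMUSG00000022994) followed another order, with guinea pig hearts lowest. Values were 9.64, 9.81 and 9.87 in the guinea pig, 10.90, 10.54 and 10.67 in the naked mole-rat, 11.35, 11.41, 11.70, 11.58 and 11.43 in the Damaraland mole-rat, and 11.59, 11.80 and 11.77 in the mouse. Guinea pig and naked mole-rat hearts each formed a separate level, and Damaraland and mouse hearts overlapped. In scaled reads the means were 796, 1590, 2820 and 3300. The Damaraland mole-rat was higher than the guinea pig (difference 1.72, SE 0.14, adjusted p = 2.16e-08), and guinea pig minus mouse was -1.95 (SE 0.16, adjusted p = 2.29e-08). Naked mole-rat minus mouse was -1.02 (SE 0.16, adjusted p = 2.79e-05), and it was -0.94 without naked mole-rat replicate 2, -0.98 without mouse replicate 2 and -0.99 without mouse replicate 3. With median centring or array weights it was -0.97, and with quantile normalisation -0.82. The naked mole-rat's differences from the Damaraland mole-rat (-0.79, adjusted p = 1.26e-04) and from the guinea pig (0.93, adjusted p = 8.36e-05) passed on p but not on size, the second reaching 1.01 without naked mole-rat replicate 2.

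Pde4d (ENSMUSG00000021699) was lowest in naked mole-rat heart. Values were 8.29, 8.77 and 9.37 in the naked mole-rat, 10.62, 9.58, 10.11, 10.04 and 9.64 in the Damaraland mole-rat, 9.73, 10.22 and 9.58 in the guinea pig, and 9.87, 9.63 and 9.55 in the mouse. All naked mole-rat hearts lay below all others, and the other 3 species overlapped. The naked mole-rat differed from the Damaraland mole-rat by -1.19 (SE 0.25, adjusted p = 6.26e-04), from the guinea pig by -1.04 (SE 0.28, adjusted p = 0.00452) and from the mouse by -0.87 (SE 0.28, adjusted p = 0.0122), the last under the size threshold. Without naked mole-rat replicate 1 the first of these was -0.93 and the second -0.78, and without guinea pig replicate 2 the second was -0.85. Without naked mole-rat replicate 3 the difference from the mouse was -1.16 (adjusted p = 0.00177), and it was -1.17 both with array weights and with voom.

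The low-depth naked mole-rat heart replicate 3 was the lowest of its group for Adrb1, Adora1, Adra1a and Adcy5 and the highest for Chrm2, Pde4d and Adra1b. Its Adra1b value came from 4 reads, against a floor of 3 reads used as the limit of detection. Among the atrial markers, replicate 3 had the most Bmp10 (98.8 RPM, group low 0.4) and Sln (60.2, group low 2.0) of its group. It had the least Stard10 (82.6, group high 147). Atrial markers varied within other species too. Bmp10 was 0.339 to 92.6 RPM in Damaraland hearts, highest in replicate 5, and Myl4 3.71 to 504 in guinea pig hearts, highest in replicate 2. The part of heart chamber in the values of these libraries was not tested.

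Ratios within a library were compared between the mole-rats (8 hearts) and outgroups (6 hearts) for 3 pairs of genes, as log2 of scaled reads plus 1, with a two-sided exact permutation test. Since gene length is not corrected, only the difference of a ratio between species is read. The test exchanges libraries and not species, so its p does not measure the spread between species. Adra1a over Adra1b was 7.72, 7.45 and 5.05 in naked mole-rat hearts, whereas all other hearts lay between -2.28 and 0.16. The mole-rat and outgroup means were 1.99 and -0.69, and the difference of 2.68 had an exact p of 0.196 (0.295 adjusted over 3 ratios). The Damaraland mean of -0.86 ± 0.95 (SD, n = 5) was close to the guinea pig mean of -0.95 ± 0.95 (n = 3), and the ranges of these species overlapped.

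Adcy5 over Adcy6 was 1.24 ± 0.42 in the naked mole-rat (SD, n = 3), 1.36 ± 0.21 in the Damaraland mole-rat (n = 5), 3.26 ± 0.27 in the guinea pig (n = 3) and -0.27 ± 0.12 in the mouse (n = 3). The mole-rats thus lay together between the outgroups, and the mole-rat minus outgroup difference was -0.18 (exact permutation p = 0.756). Adrb1 over Chrm2, the stimulatory over the inhibitory receptor of heart rate, was -1.52 ± 1.27, -3.11 ± 0.68, -0.50 ± 0.48 and -2.58 ± 0.33 in the same order of species. Its mole-rat minus outgroup difference was -0.97 (exact permutation p = 0.148, adjusted 0.295). By their means, neither mole-rats nor outgroups formed a group in this ratio, since each held 1 species with a high and 1 with a low mean. The naked mole-rat hearts had -0.84, -0.74 and -2.98. The last, from the shallow replicate 3, lay inside the Damaraland range of -4.01 to -2.16.

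In liver, Chrm2 did not pass the filter and 7 of the 8 genes were tested. The average contrast called 4 of 7, Adrb1, Adra1b and Adcy6 higher and Adora1 lower in the mole-rats, where 28.1% of all genes were called, 15.1% higher and 13% lower. The median difference was 0.70, against 0.02 over all genes. As in heart, no member was called in the same direction in all 4 mole-rat against outgroup contrasts by limma or by voom, where 6.29% of all genes were by limma. At an adjusted p under 0.05 without the size threshold, 1 gene met that rule, Adcy6, as it did at an unadjusted p under 0.05. Over the 6 pairs of species 17 of 42 tests were called, where 34.2% to 41.2% of all genes were called per pair.

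By pair in liver, naked and Damaraland mole-rats differed in 2 genes (34.2% of all genes), naked mole-rat and guinea pig in 4 (37.8%) and naked mole-rat and mouse in 4 (41.2%). Damaraland mole-rat and guinea pig differed in 1 (36.2%), Damaraland mole-rat and mouse in 3 (39.2%) and guinea pig and mouse in 3 (37.2%).

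Adrb1 was higher in naked mole-rat liver than in every other liver, at a low level. Values were 6.82, 6.63, 7.31 and 6.65 in the naked mole-rat, 5.76, 5.61, 6.16, 5.82 and 5.83 in the Damaraland mole-rat, 4.95, 5.25 and 5.09 in the guinea pig, and 5.80 and 5.31 in the mouse. The naked mole-rat values were above all others, and the Damaraland and mouse values overlapped. These came from 46 to 144 reads in the naked mole-rat and 6 to 53 in the other species, with mean scaled reads of 82.1, 25.3, 6.46 and 16.9. The naked mole-rat differed by 1.02 from the Damaraland mole-rat (SE 0.18, adjusted p = 7.84e-05), by 1.76 from the guinea pig (SE 0.20, adjusted p = 7.68e-07) and by 1.30 from the mouse (SE 0.23, adjusted p = 9.68e-05), so Adrb1 was higher in the naked mole-rat alone, as were 5.83% of all genes in liver. The difference from the Damaraland mole-rat was 0.86 to 1.0 and not called without naked mole-rat replicate 3 or Damaraland replicate 1 or 2. With array weights it was 0.96, and with quantile normalisation the difference from the mouse was 0.99. Damaraland mole-rat minus guinea pig was 0.74 (SE 0.19, adjusted p = 0.00291), which voom called (1.94). The average contrast of 1.02 (SE 0.15, adjusted p = 1.24e-05) was 0.79 with quantile normalisation and 0.89 to 0.98 without naked mole-rat replicate 3, Damaraland replicate 3, guinea pig replicate 1 or mouse replicate 2.

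Markers of other cells are given beside Adrb1 in liver. The sum of 3 cholangiocyte markers was 132 to 194 RPM in naked mole-rat liver, 57.3 to 178 in guinea pig, 4.7 to 30.6 in Damaraland and 2.01 to 3.56 in mouse liver. Epcam carried the naked mole-rat sum, at 116 to 176 RPM, while Krt19 was 12.3 to 17.2 there against 50.3 to 170 in the guinea pig, and Krt7 was 0.0483 to 0.324 against 0.261 to 5.53 in the other species. The sum of 10 neuron and glia markers was 104 to 199 in the naked mole-rat, led by S100b, and 18.3 to 28.0, 3.77 to 5.59 and 0.624 to 1.03 in Damaraland, guinea pig and mouse liver. Chat, a defining marker of cholinergic neurons, was at 0 in all liver libraries. The sum of 4 adipocyte markers was highest in Damaraland liver, at 42.0 to 278 RPM. It was 1.46 to 5.07 in naked mole-rat, 0.304 to 0.606 in guinea pig and 0.0891 to 0.272 in mouse liver. The part of these cells in the Adrb1 difference was not tested.

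Adra1a was lowest in mouse liver and highest in guinea pig and Damaraland liver. Values were 7.40 and 6.90 in the mouse, 8.77, 8.68, 9.03 and 8.47 in the naked mole-rat, 10.23, 10.05, 10.02, 9.71 and 9.80 in the Damaraland mole-rat, and 10.30, 9.63 and 10.53 in the guinea pig. The mouse and naked mole-rat ranges were separate from all others, and Damaraland and guinea pig overlapped. Scaled reads averaged 108, 393, 966 and 1140 in that order. Mouse liver was lower than each other species, with differences of the naked mole-rat, Damaraland mole-rat and guinea pig from it of 1.59 (SE 0.24, adjusted p = 1.87e-05), 2.81 (SE 0.23, adjusted p = 1.47e-08) and 3.01 (SE 0.25, adjusted p = 2.46e-08). Adra1a was thus lower in the mouse alone, as were 5.83% of all genes in liver. The naked mole-rat was lower than the Damaraland mole-rat by limma (difference -1.22, SE 0.19, adjusted p = 1.75e-05) and than the guinea pig (-1.42, SE 0.21, adjusted p = 1.53e-05).

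Adra1b in liver was near the floor in the guinea pig. The guinea pig livers had values of 5.39, 5.34 and 5.51, from 17, 13 and 22 reads. Values were 8.57, 8.86, 8.31 and 8.74 in the naked mole-rat, 9.17, 8.70, 8.48, 9.24 and 10.28 in the Damaraland mole-rat, and 9.74 and 9.36 in the mouse. Every guinea pig liver lay below every other liver, and the Damaraland range overlapped those of the naked mole-rat and mouse. Pooled, 52 of 55123663 guinea pig reads gave 0.943 RPM (exact 95% Poisson interval 0.705 to 1.24). Mean scaled reads were 12.5 in the guinea pig and 28.7, 48.1 and 57.4 times that in the naked mole-rat, Damaraland mole-rat and mouse.

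The differences of Adra1b from the guinea pig were 3.21 for the naked mole-rat (SE 0.30, adjusted p = 6.08e-08) and 3.76 for the Damaraland mole-rat (SE 0.29, adjusted p = 4.78e-09), and guinea pig minus mouse was -4.14 (SE 0.36, adjusted p = 3.77e-08). Adra1b was lower in guinea pig liver alone, as were 4.28% of all genes. No pair of the other 3 species was called (naked minus Damaraland -0.55, adjusted p = 0.0735; naked minus mouse -0.93, adjusted p = 0.0246; Damaraland minus mouse -0.38, adjusted p = 0.332). The naked mole-rat and mouse livers did not overlap, and their difference was called without naked mole-rat replicate 2 (-1.01), without mouse replicate 2 (-1.12) and with voom (-1.04, adjusted p = 0.0199). The average contrast of 1.42 (SE 0.22, adjusted p = 2.59e-05) therefore rested on the guinea pig.

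Adra1b was thus near the floor in 1 species in each tissue, the naked mole-rat in heart and the guinea pig in liver. It had 0.485 RPM on average in naked mole-rat heart (0.237 without the shallow replicate 3) and 22.6 in naked mole-rat liver, but 13.8 in guinea pig heart and 0.94 in guinea pig liver. Adra1a in the same libraries was 50.0 and 24.7 in naked mole-rat heart and liver and 7.09 and 84.4 in the guinea pig. In the Damaraland mole-rat Adra1a was 16.5 in heart and 71.9 in liver, and in the mouse 35.1 and 8.12. Heart and liver were normalised separately and are set side by side as RPM without a test. Adra1a over Adra1b in liver was 6.57, 6.01 and 6.50 on the log2 scale in the guinea pig, between -0.5 and 1.64 in both mole-rats and -2.62 and -2.88 in the mouse.

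**Figure D2:**
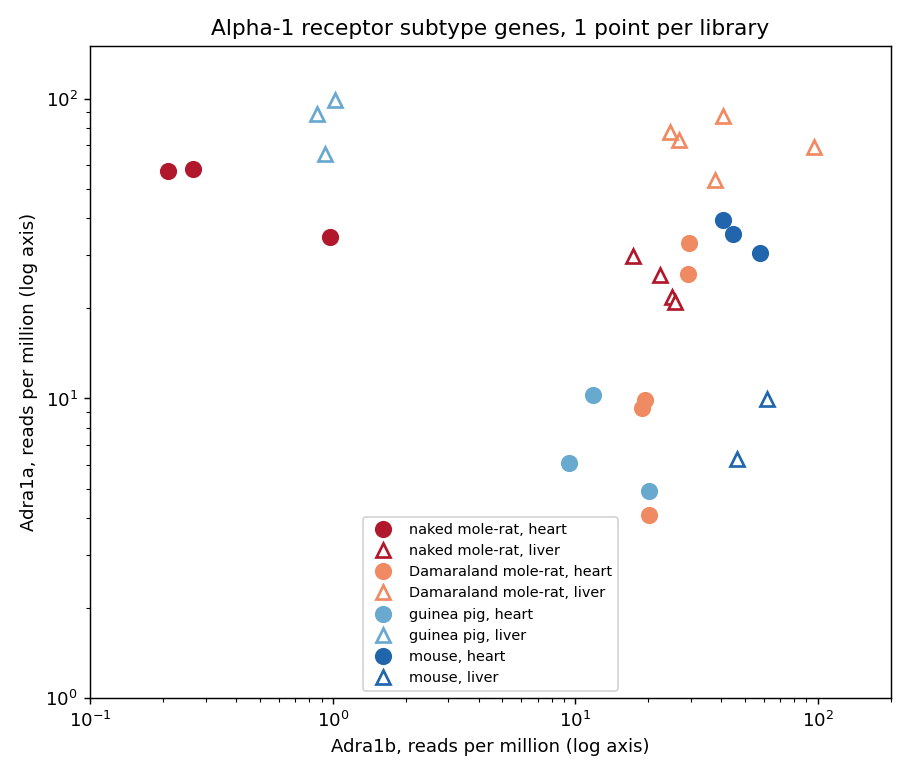
RPM of Adra1b (x, log axis) and Adra1a (y, log axis), 1 point per library, with circles for heart and triangles for liver, coloured by species. The naked mole-rat hearts and the guinea pig livers stand apart on the left, with a mean of 0.485 and 0.94 RPM of Adra1b, where Adra1a averaged 50.0 and 84.4.

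Chrm2 was close to the floor in all livers, with 1 to 7 reads per library in the naked mole-rat, 1 to 6 in the Damaraland mole-rat, 5 to 21 in the guinea pig and 0 and 7 in the mouse. Over all genes without a filter, its largest difference was guinea pig minus mouse, 0.51 (SE 0.23, adjusted p = 0.0778, limma). Pooled over libraries, the guinea pig had 0.617 RPM (exact 95% Poisson interval 0.427 to 0.862), above the intervals of the naked mole-rat (0.102 to 0.329) and Damaraland mole-rat (0.129 to 0.365) and overlapping that of the mouse (0.0951 to 0.487). These intervals cover counting error only, and 21 of the 34 guinea pig reads came from replicate 1.

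Adora1 was high in mouse liver and near the floor elsewhere. Values were 8.56 and 8.65 in the mouse, 5.14, 5.13, 5.49 and 4.96 in the naked mole-rat, 5.62, 5.67, 5.96, 5.27 and 5.38 in the Damaraland mole-rat, and 5.68, 5.48 and 5.59 in the guinea pig. Both mouse livers lay above all others, and the 3 other species overlapped. Mean scaled reads were 351 in the mouse, which is 43.1, 20.0 and 20.8 times the levels of 8.16, 17.5 and 16.9 in the naked mole-rat, Damaraland mole-rat and guinea pig. The differences from the mouse were -3.42 (SE 0.21, adjusted p = 3.94e-10), -3.02 (SE 0.21, adjusted p = 1.27e-09) and -3.02 (SE 0.22, adjusted p = 5.14e-09). Adora1 was higher in mouse liver alone, as were 6.33% of all genes, and its average contrast of -1.71 (SE 0.14, adjusted p = 9.25e-09) rested on the mouse. Among the other species limma made no call, while voom called the naked mole-rat lower than the Damaraland mole-rat (-1.13) and the guinea pig (-1.15). Only 2 mice gave a liver. In RPM the mouse was also the one species with more Adora1 in liver (26.5) than in heart (15.8), against 45.3, 13.3 and 29.3 times more in heart in the naked mole-rat, Damaraland mole-rat and guinea pig.

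In liver, Adcy6 had its highest values in the naked mole-rat and its lowest in the mouse. Values were 11.08, 11.16, 11.87 and 11.42 in the naked mole-rat, 10.52, 10.48, 10.61, 10.64 and 10.55 in the Damaraland mole-rat, 9.71, 10.03 and 10.31 in the guinea pig, and 9.28 and 9.61 in the mouse. None of the 4 ranges overlapped. The means in scaled reads were 2690, 1470, 1010 and 662. The naked mole-rat was higher than the guinea pig (difference 1.36, SE 0.19, adjusted p = 6.52e-06) and the mouse (1.94, SE 0.21, adjusted p = 5.1e-07), and the Damaraland mole-rat higher than the mouse (1.12, SE 0.21, adjusted p = 1.58e-04). The last of these was 0.95 without mouse replicate 1. Damaraland mole-rat minus guinea pig was 0.54 (SE 0.18, adjusted p = 0.0142), under the size threshold. The average contrast was 1.24 (SE 0.14, adjusted p = 5.56e-07).

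Adcy5 was low in liver and gave no call, with means of 6.41 ± 0.33 in the naked mole-rat (SD, n = 4), 6.97 ± 0.15 in the Damaraland mole-rat (n = 5), 7.39 ± 0.18 in the guinea pig (n = 3) and 6.79 ± 0.01 in the mouse (n = 2). Its largest difference, naked mole-rat minus guinea pig, was -0.98 (SE 0.18, adjusted p = 1.52e-04), and 4 of the 14 fits that left out 1 library put it past the size threshold, between -1.10 and -1.02, as did voom (-1.48). Pde4d gave no call either, with means of 6.67 ± 0.32, 6.52 ± 0.18, 7.26 ± 0.24 and 6.77 ± 0.39 in the same order of species and group sizes. The guinea pig livers were above the Damaraland livers in Pde4d without overlap (Damaraland minus guinea pig -0.74, SE 0.20, adjusted p = 0.00318), a difference that voom called (-1.09).

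**Figure D3:**
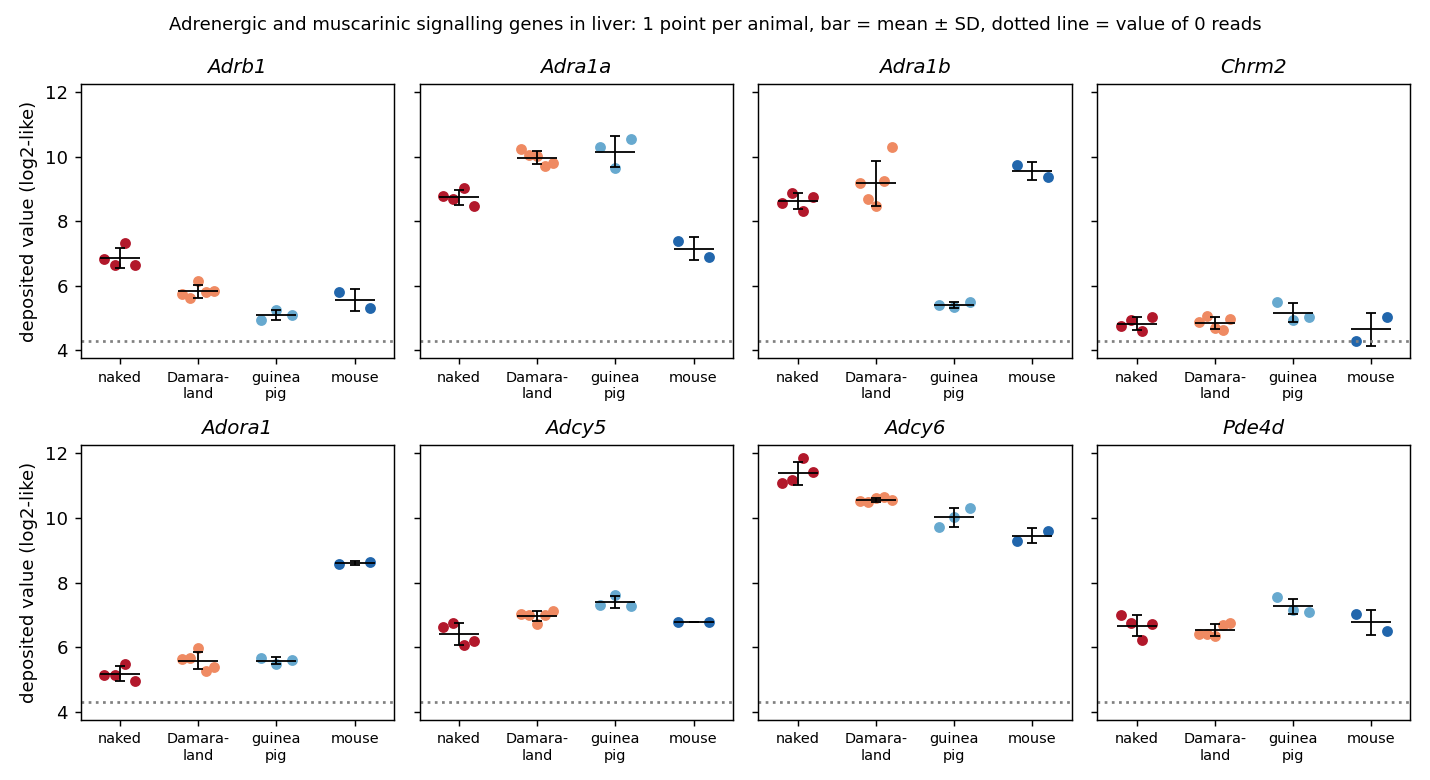
Deposited log2-like values of the 8 genes in liver (y axis), 1 point per animal, for naked mole-rat (n = 4), Damaraland mole-rat (n = 5), guinea pig (n = 3) and mouse (n = 2); bars show mean ± SD and the dotted line the value of 0 reads, 4.29. Adra1b is near the line in the guinea pig, at 5.34 to 5.51, and Adora1 is far above it in the mouse, at 8.56 and 8.65.

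Between tissues, 4 genes had more RPM in heart in every species: Chrm2 by 77.0 (guinea pig) to 906 times (mouse), Adcy5 by 26.0 to 80.0 times, Adrb1 by 7.23 to 66.4 times and Pde4d by 5.98 to 17.2 times, with no overlap of libraries within a species. Single livers near the floor set both ends for Chrm2: the guinea pig ratio was 126 without liver replicate 1, and the mouse ratio 453 without liver replicate 1, which had 0 reads. Adcy6 had more in heart in the Damaraland mole-rat (210 against 109) and the mouse (177 against 49.8), more in liver in the naked mole-rat (169 against 104), and overlapped in the guinea pig. The liver order of Adcy6 was therefore not its heart order. These ratios were not tested. How many of all genes were higher in heart in every species was not counted, so the 4 genes cannot be read against a background.

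**Figure D4:**
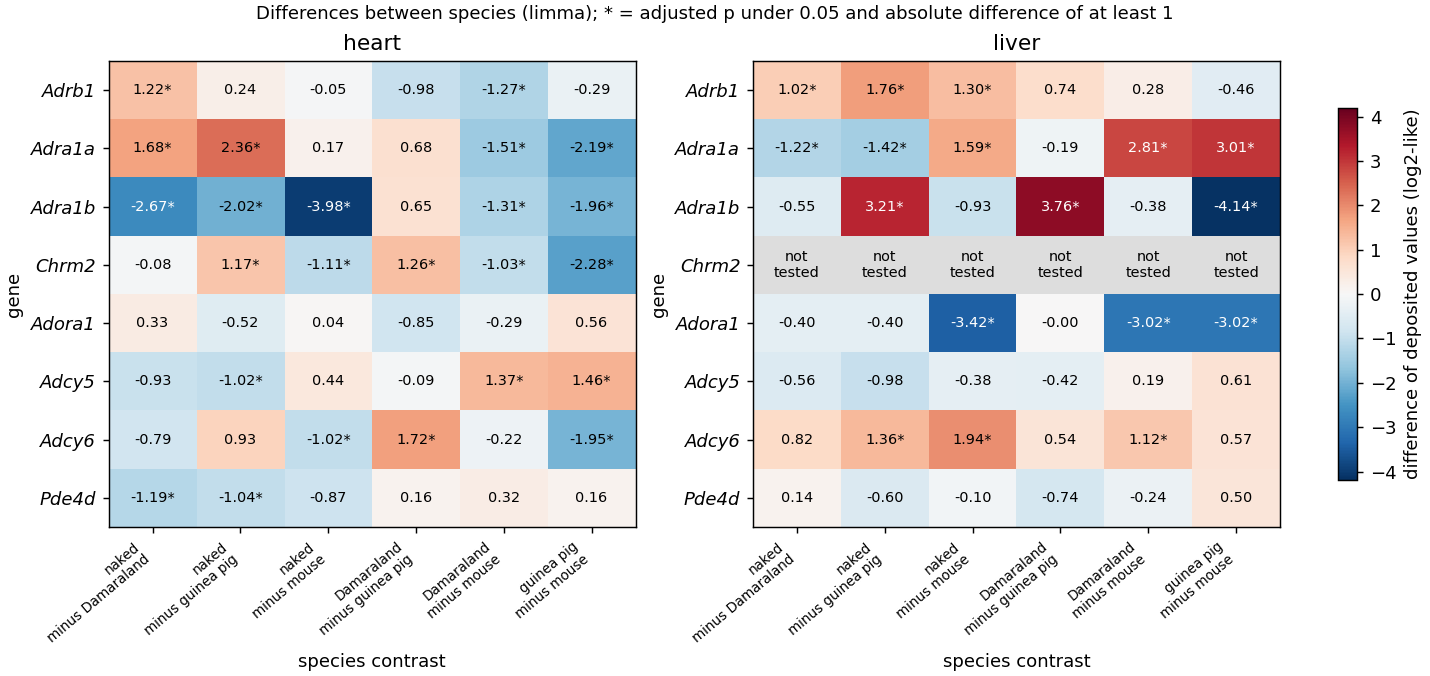
Differences of deposited log2-like values between species for each gene (rows) and pair of species (columns) in heart and liver; red is higher and blue lower in the first-named species, and an asterisk marks an adjusted p under 0.05 with an absolute difference of at least 1. The deepest colours are those of Adra1b, Adra1a and Adora1, from -4.14 to 3.76, and Adra1a is called in opposite directions in the panels in 4 of 6 pairs.

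The genes whose heart values were most like those of a member were found by Pearson correlation over the 14 heart libraries, given as a description since libraries share species and depth. They were Gpx4 (0.986) and Grb14 (0.984) for Adra1b, B4galt1 (0.985) and Cdc73 (0.981) for Chrm2, Tfdp2 (0.974) and Crcp (0.966) for Adcy6, and Gnai1 (0.971) and Lrfn3 (0.959) for Adcy5. For Adrb1 they were Pcdhb22 (0.939) and Itgb1 (0.93), for Adra1a Des (0.926) and Cdc27 (0.919), for Pde4d Gnai3 (0.914) and Fbxo33 (0.898), and for Adora1 Pold1 (0.907) and Nop53 (0.906).

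The members were set beside 124 other genes of the same pathways, of which 107 were in the tables. The others, Chrm3 and Gnas among them, were not analysed here. In heart 90 were tested. The average contrast called 27, of which 9 were higher and 18 lower in the mole-rats, which is 30.0% against 23.4% of all genes; their median difference was -0.18. In liver 87 were tested and 28 called, 20 higher and 8 lower, which is 32.2% against 28.1%, with a median of 0.12. The direction of most calls thus differed between the tissues, and no test was made of that difference. Over all genes the direction changed the same way, with 1153 higher and 1340 lower in heart and 1642 and 1414 in liver.

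By role in heart, 10 of 22 protein kinase A, Epac and anchoring genes were called (3 higher, 7 lower), 5 of 13 G protein subunit genes (2 higher, 3 lower) and 3 of 14 other phosphodiesterase genes (all lower). Of the receptor kinase, arrestin and RGS genes 3 of 15 were called (1 higher, 2 lower), of the transmitter synthesis and breakdown genes 3 of 6 (2 higher, 1 lower), of the other cyclases 1 of 6 (Adcy1, lower) and of the phospholipase C arm 1 of 12 (Itpr3, higher). In liver the counts were 7 of 20 (4 higher, 3 lower), 5 of 13 (4 higher, 1 lower), 6 of 13 (3 each way), 4 of 15 (3 higher, 1 lower), 3 of 6 (all higher), 2 of 6 (both higher) and 1 of 12 (Itpr2, higher) in the same order of groups. Of the other receptor genes, 1 of 2 was called in heart (Adra1d, lower) and 0 of 2 in liver. Over all genes 23.4% were called in heart and 28.1% in liver.

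Several partners of the members were lower in both mole-rat hearts. Gnaq, an alpha subunit through which alpha-1 receptors act, was 8.40 ± 0.11 in the naked mole-rat (SD, n = 3) and 8.16 ± 0.35 in the Damaraland mole-rat (n = 5), against 9.94 ± 0.14 in the guinea pig (n = 3) and 9.53 ± 0.14 in the mouse (n = 3). Its average contrast was -1.45 in heart (SE 0.13, adjusted p = 7.12e-08) and -1.36 in liver (SE 0.12, adjusted p = 1.6e-08), though in liver the differences from the mouse, -0.70 and -0.98, were under the size threshold. Gna11, another G protein alpha subunit gene of the list, was not called in the heart average contrast. In liver its average contrast was 0.38 by limma (SE 0.12, adjusted p = 0.00748), under the size threshold. Adcy1, a cyclase stimulated by calmodulin, was lower in both mole-rats in heart (average -2.16, SE 0.11, adjusted p = 4.51e-11), where guinea pig and mouse had 196 and 186 mean scaled reads, the naked mole-rat 9.59 and the Damaraland mole-rat 3.87. Other heart genes lower in both mole-rats against both outgroups were the anchoring protein genes Akap5 (average contrast -2.41) and Akap7 (-2.23), the Epac2 gene Rapgef4 (-2.33), the monoamine oxidase gene Maob (-2.80) and Rgs5 (-2.07), as well as Akap11. With Gnaq, 8 genes of the list were lower in both mole-rats in heart and none higher, where 2.62% of all genes were lower and 2.06% higher.

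In liver, 4 genes were higher in both mole-rats and 1 lower, where 3.42% and 2.87% of all genes were. Higher were Ppp1r1a, a protein phosphatase inhibitor that protein kinase A activates (average contrast 4.33), the inhibitory-class G protein gene Gnao1 (3.59), the cyclase gene Adcy3 (3.05) and Rgs6 (3.04). Rgs5, which is also a pericyte marker, was lower (-3.85). Ppp1r1a was near the floor in the mouse, with 3.54 mean scaled reads against 1300 in the guinea pig, 2670 in the Damaraland mole-rat and 5150 in the naked mole-rat.

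Other regulators of the same receptors differed in 1 species. Of the members and list genes tested in heart, 8 were higher and 7 lower in the naked mole-rat alone (4.87% and 4.14% of all genes), 2 and 4 in the Damaraland mole-rat (3.86% and 2.9%), 5 and 6 in the guinea pig (3.99% and 2.62%) and 5 and 6 in the mouse (6.6% and 3.8%). In liver the counts were 9 and 1 (5.83% and 4.45%), 5 and 2 (5.51% and 3.3%), 6 and 6 (5.1% and 4.28%) and 9 and 11 (6.33% and 5.83%). RGS proteins speed the shut-off of G proteins, and in heart Rgs4 was 10.73 ± 0.59 in the naked mole-rat (SD, n = 3), 6.12 ± 0.12 in the Damaraland mole-rat (n = 5), 7.86 ± 0.25 in the guinea pig (n = 3) and 8.02 ± 0.23 in the mouse (n = 3). The naked mole-rat was thus higher than every other species and the Damaraland mole-rat lower than every other, and the mole-rats differed by 4.61 (SE 0.21, adjusted p = 1.63e-11). Rgs6, known for regulating the M2 receptor pathway in heart, was higher in naked mole-rat heart alone and lower in guinea pig heart alone, at 2650, 638, 20.2 and 460 mean scaled reads in naked mole-rat, Damaraland mole-rat, guinea pig and mouse. Guinea pig hearts were therefore the lowest for both Chrm2 and Rgs6, while mouse hearts were highest for Chrm2 and not for Rgs6. Rgs2 was lower in naked mole-rat heart alone (25.4 mean scaled reads against 107 to 579), and Grk3, a receptor kinase gene, higher (1560 against 147 to 334).

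Some genes of protein kinase A differed in the mouse in both tissues. Of the regulatory subunits of protein kinase A, Prkar2a was higher in mouse heart alone (3080 mean scaled reads against 334 to 633) and in mouse liver alone (2800 against 226 to 331). Prkar2b was lower in mouse heart alone (55.9 against 371 to 2330) and in mouse liver alone (8.34 against 293 to 975). Prkar1b was higher in naked mole-rat liver alone, at 848 mean scaled reads against 3.81 to 19.4. The catalytic subunit gene Prkaca was lower in the naked mole-rat than in the mouse in heart (difference -1.13, SE 0.22, adjusted p = 2.95e-04), and in liver it was higher in the Damaraland mole-rat than in the naked mole-rat (naked minus Damaraland -1.36), the guinea pig (1.79) and the mouse (1.19).

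Among the phosphodiesterases beside Pde4d, Pde1c was lower in naked mole-rat heart alone (297 mean scaled reads against 1910 to 2570), and Pde5a higher in guinea pig heart alone (759 against 117 to 155). Pde4b was lower in the mole-rats in the average contrast in heart (-1.40, SE 0.17, adjusted p = 2.3e-06), while naked mole-rat minus guinea pig was -0.84 and under the size threshold. Pde3a gave no call in either tissue, with average differences of -0.28 in heart and -0.19 in liver. The receptor kinase Grk2 gave no call in either tissue, at -0.36 and 0.23. Grk5 was higher in guinea pig than in mouse heart (1.45, SE 0.22, adjusted p = 3.02e-05), and Gnai2, an inhibitory G protein gene downstream of Chrm2 and Adora1, was lower in both mole-rats than in the mouse in heart (naked mole-rat -1.28, Damaraland mole-rat -1.59).

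Genes of transmitter handling differed in single species as well. Maoa was lower in mouse heart alone (55.6 mean scaled reads against 411 to 1060) and in mouse liver alone (173 against 1900 to 4410). Ddc, the decarboxylase of catecholamine synthesis, was higher in Damaraland heart alone (748 against 6.03 to 139), and Bche, a cholinesterase gene, lower in guinea pig liver alone (8.11 against 301 to 2290). Th, the first enzyme of catecholamine synthesis, had at most 1 read in any heart library, and Dbh had 54 to 105 reads in mouse hearts and at most 3 in the others.

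**Figure D5:**
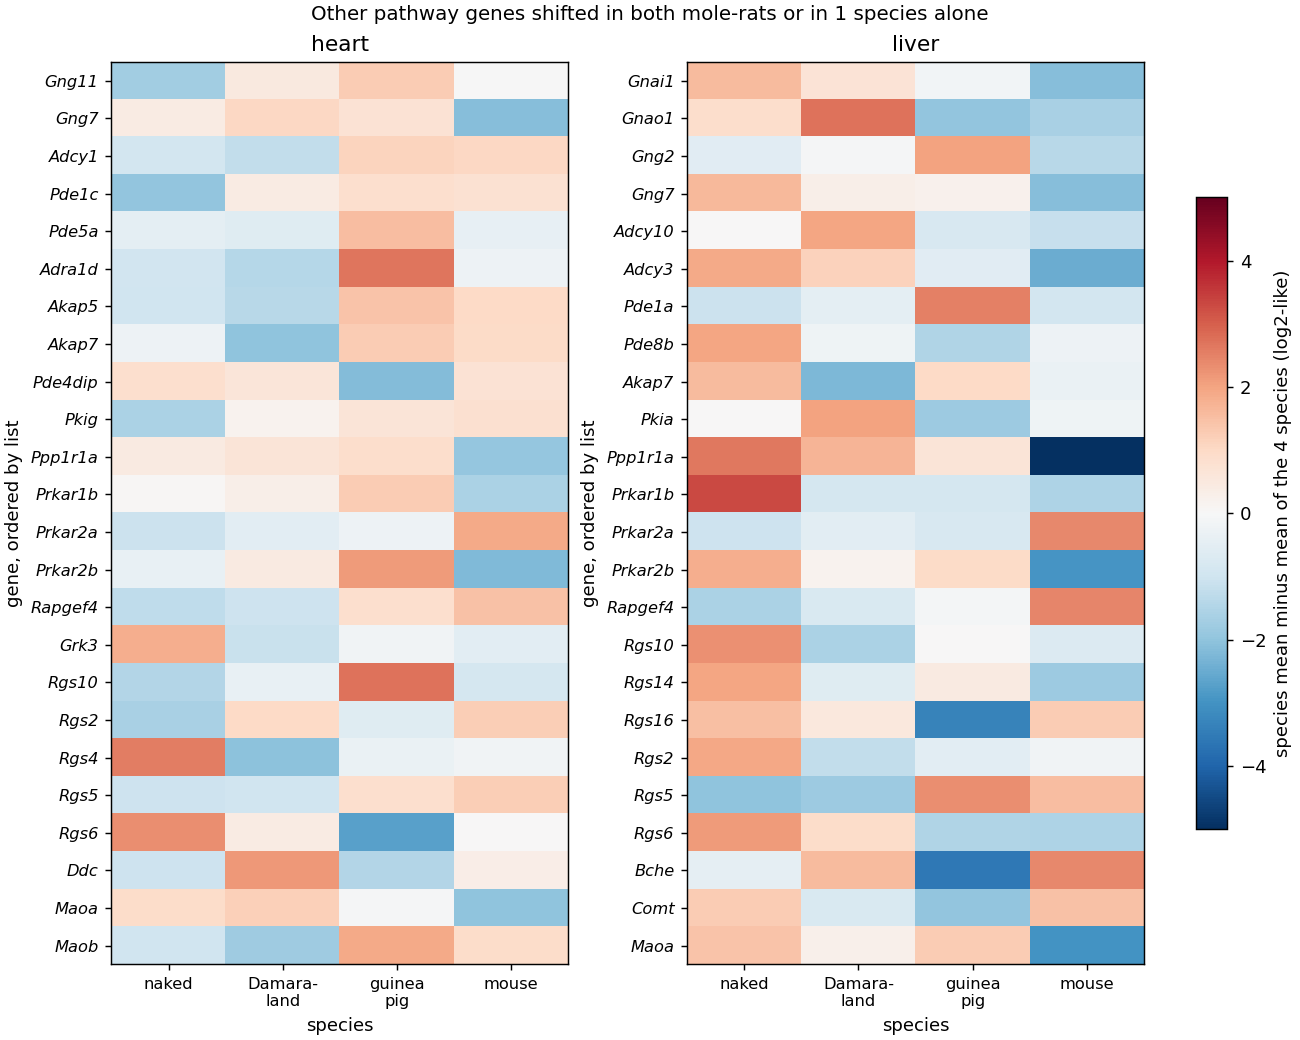
Species means of the named pathway genes other than the 8 members (rows) in heart and liver, as the difference from the mean of the 4 species on the log2-like scale (red higher, blue lower). Rgs4 in heart is highest in the naked mole-rat (10.73) and lowest in the Damaraland mole-rat (6.12), and Ppp1r1a in liver is lowest in the mouse, with 3.54 mean scaled reads.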

How the data were processed

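Per the labels, total RNA depleted of ribosomal RNA was sequenced from heart and liver. Per the submitters' processing notes, the authors used cutadapt, Salmon 013.1, DESeq2 and the mouse build GRCm38; the annotation of the other species and the assignment of genes across species are not given in the sources used here. The deposited tables, 1 per tissue, hold variance-stabilised log2 values; 26 columns of other series were not used. Of 13928 rows, 13921 had a symbol. Inverting the transform gave whole reads for 100% of values (tolerance 1e-05), used for depth, RPM, scaled reads and voom.

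Each tissue was fitted with limma 3.58.1 in R 4.3.3 (a coefficient per species, variance trend, no covariates), for genes with a mean at least 1 above the floor, the value of 0 reads; p-values are Benjamini-Hochberg adjusted over all genes tested. The labels name an animal for each library. Ratios used 1 scaled read as pseudocount. Markers were summed as RPM. The pipeline was tested on simulated data. The members and gene lists were chosen with earlier results of these data known. The named genes were all members; list genes shifted in both mole-rats, or in 1 species alone with all its libraries apart from the others (at most the 24 largest per tissue); and a fixed set of Gnai2, Gnaq, Grk2, Grk5, Prkaca, Pde3a and Pde4b. Akap11, Adora2a, Chrm1, Chrm4, Chrm5, Gna11, Itpr2, Itpr3, Th and Dbh were named after their values were seen. For each member, the 2 genes with the highest correlation were named. Alternatives covered the size threshold, the filter, centring, quantile normalisation, the variance model, array weights, a replicate block, fits on 2 species, voom, the pseudocount and leaving out each library.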

Additional observations from a re-analysis of the deposited data

Results flagged for a closer look

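In 9 cases a gene differed between a pair of species in opposite directions in heart and liver, with no overlap of the libraries of the pair in either tissue. The difference between the tissues was not tested, and the tables were normalised separately. How many of all genes met the same rule was not counted, so the 9 cases cannot be read against a background. Adra1a gave 4 of these: naked minus Damaraland mole-rat was 1.68 in heart and -1.22 in liver, naked mole-rat minus guinea pig 2.36 and -1.42, Damaraland mole-rat minus mouse -1.51 and 2.81, and guinea pig minus mouse -2.19 and 3.01. Adcy6 gave 3: naked minus Damaraland mole-rat was -0.79 in heart and 0.82 in liver, naked mole-rat minus mouse -1.02 and 1.94, and guinea pig minus mouse -1.95 and 0.57. Of these, naked minus Damaraland mole-rat missed the size threshold in both tissues and guinea pig minus mouse missed it in liver. Adra1b, naked mole-rat minus guinea pig, was -2.02 in heart and 3.21 in liver. Adrb1, Damaraland mole-rat minus guinea pig, was -0.98 in heart and 0.74 in liver, and neither passed the size threshold. No library stood apart from its group by Dixon's critical value in 24 groups of 4 or 5 libraries, a check in which chance flags about 1 in 20 groups.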

How the results depend on the processing

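Without the size threshold, the average contrast called 2 members in heart in place of 1 and 7 in liver in place of 4, and the pairwise calls in liver were 29 in place of 17. That average contrast called 3537 of all 10667 genes higher and 3645 lower in heart. In liver it called 3856 of 10887 higher and 3551 lower. Per pair in liver, 3270 to 3703 genes were higher and 3136 to 3794 lower. With limma's treat against a difference of 1, the pairwise calls were 9 in heart in place of 24 and 10 in liver, and 1 member was called in the liver average contrast. Over all genes treat called 908 higher and 797 lower in that contrast. Per pair it called 690 to 922 genes higher and 791 to 1156 lower in heart. In liver these were 979 to 1251 and 985 to 1201. Testing only genes above the table median, which leaves out low members, left 2 in the liver average contrast and 11 pairwise calls. Of the 6964 genes tested there, the average contrast called 954 higher and 784 lower. Per pair, 1063 to 1384 were higher and 1011 to 1371 lower. Other settings kept these counts within 1.5 times: voom gave 27 pairwise calls in heart and 23 in liver. Over all genes voom called 2149 to 2556 higher and 2251 to 2718 lower per pair in heart. In liver it called 2277 to 2654 and 2349 to 2631. Leaving out each library in turn gave 1 to 1 and 22 to 25 calls in heart (average and pairwise) and 3 to 4 and 16 to 19 in liver. Of 25 called member differences in heart, 10 kept their call under every setting that tested the gene, leaving out a library aside. Under leaving out any library 19 did. In liver these counts were 11 and 18 of 21. There Adrb1 and Adora1 were not tested among the genes above the table median, and their calls were not counted as lost by that setting. No called difference of a member turned its direction. The replicate block gave 1 and 26 calls in heart and 3 and 16 in liver. Deviations from the species mean were correlated between libraries of different species. For same-numbered libraries the correlations spanned -0.261 to 0.301 in heart and -0.232 to 0.15 in liver. For different-numbered libraries they spanned -0.229 to 0.231 and -0.283 to 0.326. No pairing by number was seen, and a shared batch was not tested. For the ratios, leaving out a library gave 1.87 to 3.30 for Adra1a over Adra1b, -0.56 to 0.22 for Adcy5 over Adcy6 and -1.26 to -0.66 for Adrb1 over Chrm2, with no adjusted exact permutation p under 0.192. The deposited scale compresses low levels, and the 2 mouse livers and the shallow naked mole-rat heart replicate 3 limit the precision of their groups.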
